A study of Mus musculus with 8 samples.

Results

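Glutathione turnover was described through 10 genes in mouse liver: Ggt1 and Ggt6, which belong to the gamma-glutamyltransferases that break glutathione down outside the cell; Gpx1, Gpx2, Gpx3 and Gpx4, glutathione peroxidases; Gclc, Gclm and Gss, which make glutathione; and Gsr, which reduces its oxidised form. The genes were taken by name out of 52551 rows per library, and all 10 had a row. They were chosen by role, around Ggt1 and Gpx2, which were selected on their far lower counts in the same PiZ/Chop-/- against PiZ contrast, so every difference between the groups given here for the 10 genes is a description and carries no p-value. The livers came from 6-week-old male C57BL/6 mice of 2 groups. The PiZ/Chop-/- group (4 libraries) carried the transgene PiZ, from which human alpha-1 antitrypsin (SERPINA1) is made in its Z form, a secreted protein that misfolds in the endoplasmic reticulum of hepatocytes, and lacked Chop, the gene Ddit3. The PiZ group (4 libraries) carried the same transgene with Ddit3 intact, so by the labels neither group is a healthy liver. Counts of SERPINA1 were 964 to 1529 in PiZ/Chop-/- libraries and 1956 to 4482 in PiZ libraries, so the transgene was read in all 8. Every PiZ/Chop-/- library had fewer of these raw counts than every PiZ library. The groups are thus not matched in raw transgene counts, which are not scaled to a common library size. The part of this difference in the results was not tested. Ddit3 encodes CHOP, a transcription factor made under stress of the endoplasmic reticulum. The design text names a wild-type group, but none of the 8 samples is labelled wild type. The labels do not describe the deleted stretch of Ddit3.

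Glutathione, a tripeptide of glutamate, cysteine and glycine, is the main small thiol of liver cells. The Gclc and Gclm proteins together form glutamate-cysteine ligase, whose product Gss completes; the peroxidases use glutathione to reduce peroxides, and Gsr restores it with NADPH. Gamma-glutamyltransferase splits glutathione at the cell surface so that its amino acids can be taken up again; in healthy adult rodent liver its activity is low in hepatocytes and higher in bile duct cells.

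Expression was read with QuantSeq, which sequences the 3′ end of each messenger RNA, so levels are given as CPM (counts scaled to a common library size, with TMM factors) without division by gene length. Library totals ran from 1850275 to 2375907 counts in PiZ/Chop-/- livers and from 1650260 to 3064385 counts in PiZ livers. Ddit3 had 8, 3, 5 and 9 counts in PiZ/Chop-/- libraries 1 to 4, against 311, 290, 595 and 180 in PiZ libraries 1 to 4, so the deleted gene followed the label in every library (exact two-sided permutation p = 0.0286, the smallest that 4 against 4 libraries can give). Of all rows 8669 had enough counts to be tested, and 9 of the 10 glutathione genes were among them; the exception was Gpx4. Nothing in the labels ties the libraries to separate mice, so errors and p-values cover the spread among libraries, which may be technical. In bulk liver, fewer cells of a type and less RNA per cell cannot be told apart.

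The sequences in front of 4 of the genes are shown because Ggt1, Gpx2 and Gpx3 were the members called lower in PiZ/Chop-/- livers, while Gclm is a familiar target of the antioxidant factor NRF2 and was not called. They are RefSeq sequences of build GRCm38.p6 (mm10), on the strand of the gene, from 250 bases before an annotated transcript start up to the first annotated exon. Capitals mark matches to TGACNNNGC, the core of the antioxidant response element that NRF2 binds.
Ggt1 (chr10:75571310-75571525, plus strand): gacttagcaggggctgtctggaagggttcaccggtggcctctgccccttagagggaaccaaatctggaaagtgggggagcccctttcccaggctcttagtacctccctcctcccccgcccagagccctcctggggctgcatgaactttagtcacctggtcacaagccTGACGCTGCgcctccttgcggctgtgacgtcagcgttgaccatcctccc
Gpx2 (chr12:76795555-76795804, minus strand): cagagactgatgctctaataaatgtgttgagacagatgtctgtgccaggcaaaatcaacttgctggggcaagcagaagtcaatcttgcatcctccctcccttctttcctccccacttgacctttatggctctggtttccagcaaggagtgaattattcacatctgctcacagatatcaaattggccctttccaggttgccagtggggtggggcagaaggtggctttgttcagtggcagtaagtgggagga
Gpx3 (chr11:54902604-54902771, plus strand): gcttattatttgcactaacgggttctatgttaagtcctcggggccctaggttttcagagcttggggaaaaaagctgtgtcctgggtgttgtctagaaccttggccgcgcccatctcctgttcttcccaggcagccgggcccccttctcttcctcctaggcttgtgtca
Gclm (chr3:122245307-122245556, plus strand): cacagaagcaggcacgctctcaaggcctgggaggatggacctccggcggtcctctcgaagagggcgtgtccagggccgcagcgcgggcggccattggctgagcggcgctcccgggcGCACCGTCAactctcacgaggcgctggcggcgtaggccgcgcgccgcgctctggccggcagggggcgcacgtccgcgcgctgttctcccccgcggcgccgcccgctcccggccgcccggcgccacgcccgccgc

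The table of promoters held 14 windows of 300 bases for 8 of the genes (Gclc and Gsr had none), 4 of them for separate starts of Ggt1. TGACNNNGC, searched on both strands, lay in 4 of the 14 windows, 3 of Ggt1 and 1 of Gclm, and in 12.4% of all 32851 windows. Beyond the match shown for Ggt1, which begins 83 bases before the start, matches lay 36 bases before another start of the gene and 41 bases after a further one. The window of the remaining start held none. Reads at the 3′ end do not show which of the 4 starts was used in these livers. TGATGNAA, the core to which pairs of C/EBP and ATF proteins bind, was in none of the 14 windows on either strand, and in 3.97% of all windows. The windows of Gpx2 and Gpx3 held neither motif. Such a match or its lack describes the letters only.

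Ggt1 (ENSMUSG00000006345, plus strand of chromosome 10 at 75561604 to 75586200, mm10) was far lower in the PiZ/Chop-/- livers than in the PiZ livers. It had 5, 0, 9 and 11 counts in PiZ/Chop-/- libraries 1 to 4, against 150, 168, 395 and 221 in PiZ libraries 1 to 4. These equal 2.32, 0, 4.47 and 5.12 CPM in PiZ/Chop-/- livers and 92.3, 81.6, 127 and 105 CPM in PiZ livers. Every PiZ/Chop-/- library lay far below every PiZ library, and the count of 0 in PiZ/Chop-/- library 2 allows up to 1.72 CPM (3 counts; counting error only). The means were 2.98 ± 2.32 CPM in PiZ/Chop-/- and 101 ± 19.5 CPM in PiZ (SD over 4 libraries each), with a log2 fold change of -5.02 (SE 0.42), or 32.5-fold. Among the 8669 genes tested only Ddit3 had a lower fold change. Ggt1 lies 51.7 Mb from Ddit3 on the same chromosome.

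Ggt6 (ENSMUSG00000040471, chromosome 11 at 72435526 to 72438400), a less studied relative of Ggt1, was measured at a low level in both groups. Its level was 7.90, 9.77, 9.43 and 13.5 CPM in PiZ/Chop-/- libraries and 19.7, 17.0, 11.3 and 23.7 CPM in PiZ libraries. The groups overlapped by 1 library on either side, PiZ/Chop-/- library 4 and PiZ library 3. The log2 fold change was -0.80 (SE 0.30; 95% interval -1.45 to -0.15 for this gene alone, not adjusted for the number of genes), and Ggt6 was not called. The other relatives were barely read: Ggt5 had 0 to 5 counts and Ggt7 0 or 1 count per library. The Ggt1 share of all Ggt1, Ggt5, Ggt6 and Ggt7 counts, a ratio within each library that no scaling touches, was 20.8%, 0%, 28.1% and 24.4% in PiZ/Chop-/- libraries and 81.5%, 82.0%, 91.4% and 81.5% in PiZ libraries. Ggt6 thus gave most of the family's counts in the PiZ/Chop-/- libraries and Ggt1 most of them in the PiZ libraries.

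**Figure D1:**
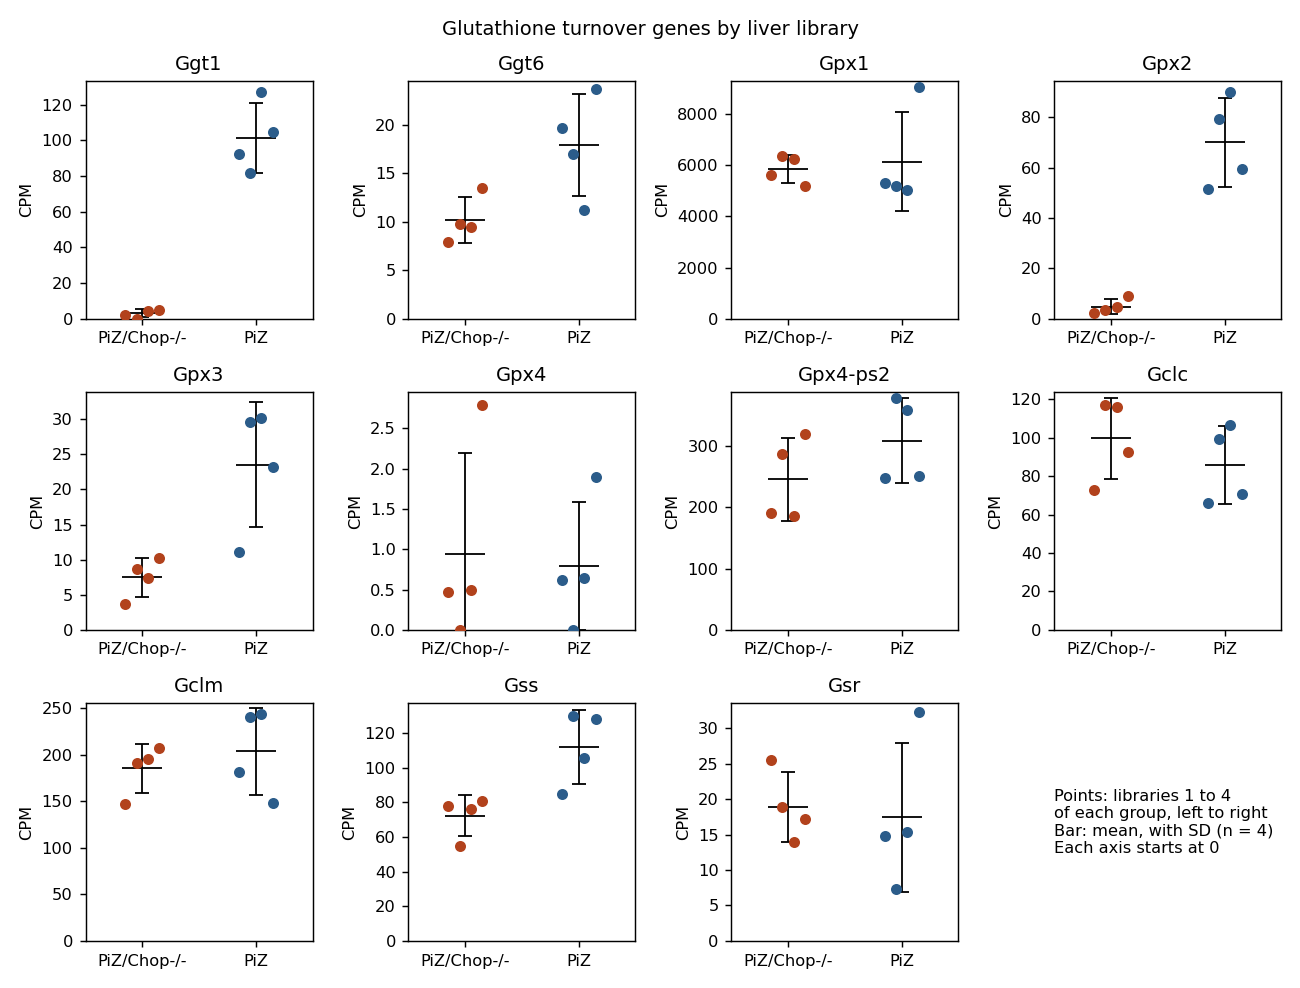
Levels of the 10 genes and of the pseudogene Gpx4-ps2 in CPM (vertical axes, each from 0) in the 4 PiZ/Chop-/- libraries (left, orange) and the 4 PiZ libraries (right, blue); points are libraries 1 to 4 from left to right, bars the mean with its SD. Ggt1, Gpx2, Gpx3 and Gss separate the groups, with every PiZ/Chop-/- library below every PiZ library, while PiZ library 4 stands alone for Gpx1 at 9059 CPM.

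Of the peroxidases, Gpx2 (ENSMUSG00000042808, minus strand of chromosome 12 at 76792333 to 76795554) differed most between the groups and was lower in PiZ/Chop-/- livers. Gpx2 is best known from the epithelium of the gut. It had 5, 6, 9 and 19 counts in PiZ/Chop-/- libraries, against 84, 163, 280 and 125 in PiZ libraries. On the CPM scale these were 2.32, 3.45, 4.47 and 8.85 in PiZ/Chop-/- livers and 51.7, 79.2, 90.0 and 59.3 in PiZ livers. The highest PiZ/Chop-/- library, library 4, stayed well under the lowest PiZ library, library 1. The means were 4.77 ± 2.86 CPM in PiZ/Chop-/- and 70.1 ± 17.7 CPM in PiZ (SD over 4 libraries each), with a log2 fold change of -3.85 (SE 0.34), or 14.4-fold. Fntb, a subunit of protein farnesyltransferase, covers the same 3222 bases on the opposite strand and had 6 or 7 counts in PiZ/Chop-/- libraries and 6 to 21 in PiZ libraries, so it held too few counts to be tested.

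Gpx3 (ENSMUSG00000018339, chromosome 11 at 54902453 to 54910377), the secreted peroxidase of blood plasma, made chiefly by the kidney, was lower as well, by less. Its level was 3.72, 8.62, 7.45 and 10.2 CPM in PiZ/Chop-/- libraries and 11.1, 29.6, 30.2 and 23.3 CPM in PiZ libraries. The groups did not overlap, though PiZ/Chop-/- library 4 and PiZ library 1 lay close to each other. The log2 fold change was -1.66 (SE 0.36), or 3.17-fold. The call for Gpx3 was lost when PiZ/Chop-/- library 1, 3 or 4 or PiZ library 2 or 3 was left out, and with limma-voom or a fit that was not robust, while its log2 fold change stayed between -1.99 and -1.43 over the 19 settings.

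Gpx1 (ENSMUSG00000063856, chromosome 9 at 108338903 to 108340343), the cytosolic peroxidase of most cells, was by far the most abundant of the 10 genes. It stood at 5622, 6350, 6263 and 5187 CPM in PiZ/Chop-/- libraries and at 5309, 5181, 5026 and 9059 CPM in PiZ libraries. The groups overlapped, and PiZ library 4 was far above the other 7 libraries. The log2 fold change was -0.07 (SE 0.22; 95% interval -0.54 to 0.40), and 0.20 without PiZ library 4. Gpx1 took 93.8% to 96.9% of all Gpx1 to Gpx4 and Gpx4-ps2 counts in PiZ/Chop-/- libraries and 91.3% to 96.4% in PiZ libraries. The Gpx2 share of the same sum was 0.0399% to 0.160% in PiZ/Chop-/- libraries and 0.631% to 1.64% in PiZ libraries, so even in PiZ livers Gpx2 was a small part of the peroxidase transcripts.

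Gpx4 (ENSMUSG00000075706, chromosome 10 at 80047166 to 80056439), the peroxidase that reduces lipid peroxides within membranes and guards against ferroptosis, was nearly unread as annotated. It had 1, 0, 1 and 6 counts in PiZ/Chop-/- libraries and 1, 0, 2 and 4 counts in PiZ libraries. Its processed pseudogene Gpx4-ps2 (ENSMUSG00000110841, chromosome 10 at 45875291 to 45876086) had 412, 498, 374 and 686 counts in PiZ/Chop-/- libraries and 404, 778, 1116 and 528 counts in PiZ libraries. Gpx4-ps2 thus held 99.1% to 100% of the counts of the pair in every library. In the GENCODE transcripts the last 296 bases of Gpx4 (Gpx4-202) matched those of Gpx4-ps2 (Gpx4-ps2-202) without a difference, and 599 of the last 600 bases were equal, the run of A at the end of the pseudogene left out. The last 30 bases of each are shown because the QuantSeq reads fall at this end; capitals mark the 20 A that the pseudogene transcript carries after the shared part.
Gpx4: tgccttgtgggaataaaatgtagaaatgtg
Gpx4-ps2: tagaaatgtgAAAAAAAAAAAAAAAAAAAA

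Whether the reads counted for Gpx4-ps2 came from Gpx4 was not tested, and the counts of the pair cannot be told apart at this end. The pseudogene row stood at 246 ± 67.4 CPM in PiZ/Chop-/- and 309 ± 69.1 CPM in PiZ (SD, n = 4 each), with a log2 fold change of -0.33 (SE 0.22; 95% interval -0.81 to 0.15), and was not called. With the counts of Gpx4 and Gpx4-ps2 added together, a choice made after the values were seen, the log2 fold change was -0.33 and the sum was not called either.

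Of the genes that make glutathione, the ligase subunits differed little between the groups and Gss was lower without a call. Gclc (ENSMUSG00000032350, chromosome 9 at 77754535 to 77794485), the catalytic subunit that sets the pace of synthesis, stood at 72.9, 117, 116 and 92.7 CPM in PiZ/Chop-/- libraries and at 65.8, 99.1, 107 and 70.7 CPM in PiZ libraries. The ranges overlapped almost fully, with a log2 fold change of 0.22 (SE 0.22; 95% interval -0.24 to 0.68). Gclm (ENSMUSG00000028124, chromosome 3 at 122245557 to 122270732), the modifier subunit, stood at 147, 191, 196 and 207 CPM in PiZ/Chop-/- libraries and at 181, 240, 243 and 149 CPM in PiZ libraries. Here too the groups overlapped, and the log2 fold change was -0.14 (SE 0.20; 95% interval -0.56 to 0.29). These intervals leave out a change as large as that of Gpx3 in either ligase subunit.

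The number of Gclm counts per Gclc count does not depend on the scaling of libraries. It was 2.01, 1.63, 1.68 and 2.24 in PiZ/Chop-/- libraries and 2.76, 2.43, 2.28 and 2.10 in PiZ libraries, with means of 1.89 ± 0.287 in PiZ/Chop-/- and 2.39 ± 0.278 in PiZ (SD, n = 4 each). PiZ/Chop-/- library 4 lay above PiZ library 4, so the groups overlapped in this ratio.

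**Figure D2:**
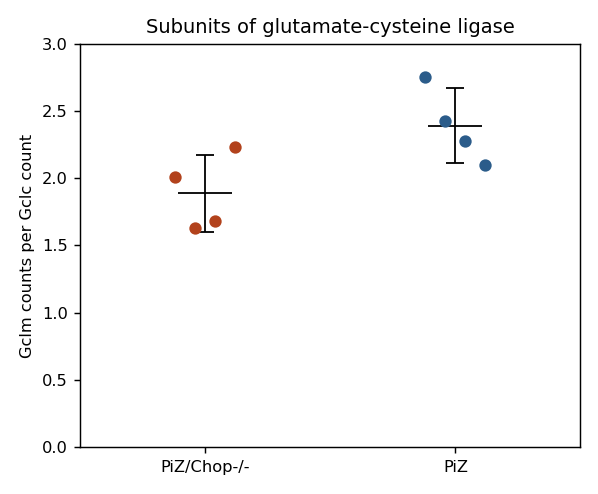
Gclm counts per Gclc count (vertical axis, from 0) in the 4 PiZ/Chop-/- libraries (left) and the 4 PiZ libraries (right); points are libraries 1 to 4 from left to right, bars the mean with its SD. The PiZ/Chop-/- libraries lie between 1.63 and 2.24 and the PiZ libraries between 2.10 and 2.76.

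Gss (ENSMUSG00000027610, minus strand of chromosome 2 at 155563181 to 155592810), glutathione synthetase, stood at 78.1, 54.6, 76.0 and 80.6 CPM in PiZ/Chop-/- libraries and at 84.9, 130, 105 and 128 CPM in PiZ libraries. Every PiZ/Chop-/- library was below every PiZ library, yet PiZ/Chop-/- library 4 and PiZ library 1 nearly met. The log2 fold change was -0.63 (SE 0.20; 95% interval -1.05 to -0.21 for this gene alone), and Gss was called neither with all 8 libraries nor in any of 19 other settings. Acss2, an acetyl-CoA synthetase gene, overlaps Gss over 22544 bases on the opposite strand, and whether the counting used strand is not stated. Acss2 itself had a log2 fold change of -0.05 (SE 0.30).

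Gsr (ENSMUSG00000031584, chromosome 8 at 33652523 to 33698163), glutathione reductase, stood at 25.6, 19.0, 13.9 and 17.2 CPM in PiZ/Chop-/- libraries and at 14.8, 7.29, 15.4 and 32.3 CPM in PiZ libraries. The spread among PiZ libraries covered the whole PiZ/Chop-/- range. The log2 fold change was 0.12 (SE 0.37; 95% interval -0.66 to 0.90), the widest interval of the genes of synthesis and reduction. The other annotated genes that overlap a member, Gssos1 and Gssos2 with Gss, Gm17494 and Gm6061 with Gclm and Gm24727 with Gsr, had 0 to 4 counts per library, and the pseudogene Gpx2-ps1 had 0 counts in all 8.

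**Figure D3:**
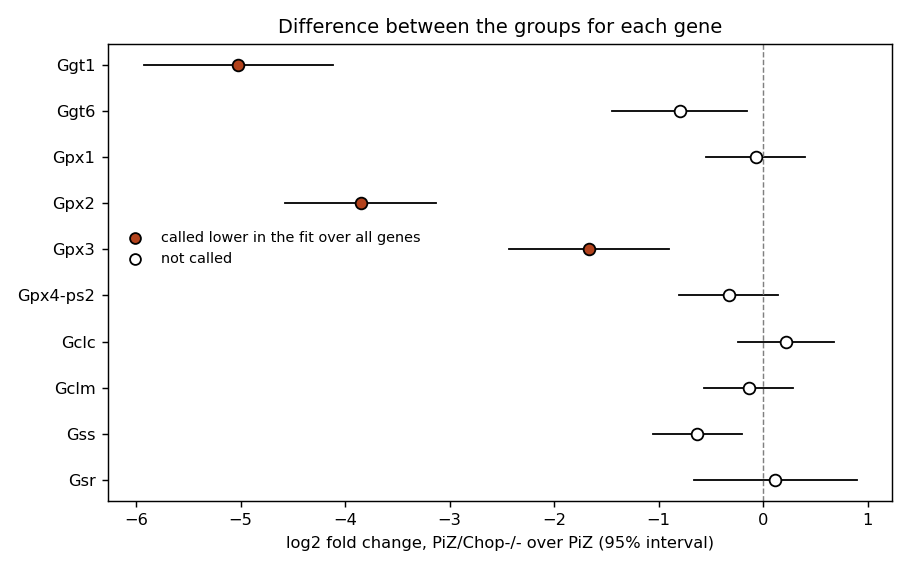
Log2 fold change of each tested gene and of the pseudogene Gpx4-ps2, PiZ/Chop-/- over PiZ (horizontal axis), with the 95% interval from the edgeR fit as a line; filled points were called lower in the fit over all genes. Ggt1 (-5.02) and Gpx2 (-3.85) stand apart, Gpx3 follows (-1.66), and the intervals of Gpx1, Gpx4-ps2, Gclc, Gclm and Gsr cross 0.

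Over the 9 tested genes, 3 were called lower (Ggt1, Gpx2 and Gpx3) and none higher by edgeR's quasi-likelihood test with Benjamini-Hochberg adjustment over 8669 genes and a threshold of 0.05, against 0.692% of all tested genes called lower, 0.335% called higher and 1.03% called in either direction. In 4 of the 9 every PiZ/Chop-/- library was below every PiZ library, against 4.22% of all tested genes, and in none was it the other way round, against 3.66% (7.88% in either direction). Since genes were gathered with this contrast known, these counts carry no inference. By role, 1 of 2 transferases, 2 of 3 tested peroxidases and none of the 4 genes of synthesis and reduction were called. In order of mean level the genes in PiZ/Chop-/- livers ran from Gpx1 through Gclm, Gclc, Gss, Gsr, Ggt6, Gpx3, Gpx2 and Ggt1 to Gpx4. In both groups Gpx4 is placed by its own row only, so its rank is not a level of expression. Gpx4-ps2 held 99.1% to 100% of the counts of the pair, which cannot be told apart. In PiZ livers the order was Gpx1, Gclm, Gss, Ggt1, Gclc, Gpx2, Gpx3, Ggt6, Gsr and Gpx4. In PiZ livers Gss, Ggt1 and Gclc, neighbours in that order, had overlapping ranges, as had Gclc and Gpx2, and Gpx3, Ggt6 and Gsr. In PiZ/Chop-/- livers Gpx4, Ggt1, Gpx2, Gpx3 and Ggt6 each overlapped the next, and so did Gss and Gclc.

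**Figure D4:**
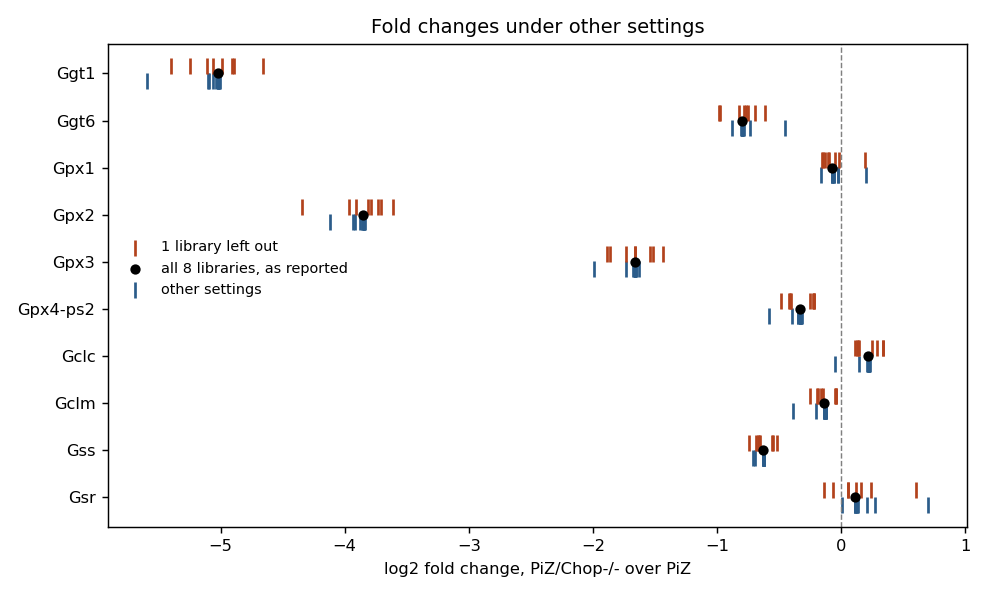
Log2 fold change, PiZ/Chop-/- over PiZ (horizontal axis), of the tested genes and Gpx4-ps2 with all 8 libraries (black points), with 1 library left out (orange marks) and under the other settings (blue marks). Ggt1 stays between -5.59 and -4.66 and Gpx2 between -4.34 and -3.61, while Gpx1, Gclc and Gsr lie on both sides of 0.

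The genes whose levels ran most like those of Ggt1 over the 8 libraries, by Pearson r of log2 CPM among all tested genes with a name, were Rhbg (0.981), Chmp2b (0.979), Serpinb6a (0.977), Grb2 (0.976) and Selenoh (0.972). Rhbg, an ammonium transporter, and Serpinb6a, an intracellular serpin, were called lower in PiZ/Chop-/- livers, with log2 fold changes of -1.66 (SE 0.26) and -1.96 (SE 0.32). For Gpx2 they were Btbd9 (0.971), Hk2 (0.971), Gstm2 (0.970), Ddit3 (0.969) and Sdr39u1 (0.966). These values are descriptions: the difference between the groups makes up most of each, and 8 libraries put some of 8669 genes close to any pattern. After each group was centred on its own mean, the leading genes were Ogt (0.985), Snhg11 (0.983), Brd8 (0.974), AI480526 (0.974) and Zfp553 (0.968) for Ggt1 and Rc3h2 (0.955), Arl2 (0.952), Erlec1 (0.950), Psmd1 (0.920) and Phkb (0.915) for Gpx2. None of these 10 was among the 10 above, and none of the 10 was called. Ggt1 had only 0 to 11 counts and Gpx2 5 to 19 in PiZ/Chop-/- libraries, so their centred values there carry a large counting error.

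Beyond the 10 genes, 137 further genes of glutathione use and supply were listed, 110 of which had enough counts; 4 were called lower and none higher (edgeR, Benjamini-Hochberg), against 0.692% and 0.335% of all tested genes. The count of 4 became 2 without PiZ/Chop-/- library 3 or PiZ library 2 and 7 without PiZ/Chop-/- library 2. Their median log2 fold change was -0.11, against -0.0016 over all tested genes, and 63.6% lay below 0, against 50.2%. Without PiZ library 4 the median was -0.04, against 0.02 over all genes. The 4 were Abcc4, Cbr3, Gstm3 and Gstm2. Abcc4 is a pump that exports organic anions and also carries glutathione. It stood at 4.65, 2.87, 3.97 and 4.66 CPM in PiZ/Chop-/- libraries and at 57.2, 95.2, 68.2 and 113 CPM in PiZ libraries (log2 fold change -4.33, SE 0.30). Every PiZ/Chop-/- library was far below every PiZ library. Cbr3 is a carbonyl reductase on the list of NRF2 and its targets. It stood at 2.79, 2.30, 5.96 and 2.33 CPM in PiZ/Chop-/- libraries and at 31.4, 56.8, 46.3 and 75.0 CPM in PiZ libraries (-3.95, SE 0.36). Both Abcc4 and Cbr3 were already known to be lower when the lists were drawn up. No p-value is therefore given for them, and the count of 4 called lower carries no inference.

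Of 24 glutathione S-transferases, which couple glutathione to foreign compounds, 17 were tested. Of these 2 were called lower, both of the mu class, against 0.692% of all tested genes called lower. Gstm3 stood at 77.6, 168, 136 and 199 CPM in PiZ/Chop-/- libraries and at 293, 679, 502 and 845 CPM in PiZ libraries (log2 fold change -2.0, SE 0.35, edgeR adjusted p = 0.0173). Gstm2 stood at 391, 499, 447 and 456 CPM in PiZ/Chop-/- libraries and at 740, 896, 911 and 883 CPM in PiZ libraries (-0.94, SE 0.18, edgeR adjusted p = 0.0155). The groups were separate for both genes. Gstm4 was also separate, at -0.98 (SE 0.25, adjusted p = 0.0855), and was not called. The call for Gstm3 was lost without PiZ/Chop-/- library 3 or PiZ library 2 or 4, and that for Gstm2 without PiZ/Chop-/- library 1, 3 or 4 or PiZ library 2 or 3 (adjusted p up to 0.0831 and 0.0734). The mu genes are alike in sequence, so the split of reads among them is uncertain.

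The lists of breakdown, other peroxidases, thioredoxins, amino acid supply and NADPH held no called gene. Without PiZ/Chop-/- library 2, 1 gene of thioredoxins and 1 of amino acid supply were called lower. In the breakdown list, of which Gggact was not matched, 5 of 13 genes were tested, with a median log2 fold change of 0.06 (0.01 without PiZ/Chop-/- library 2, 0.26 without PiZ library 2). Its gene of lowest p was Ggct, which cuts gamma-glutamyl amino acids taken up after the step of Ggt1, at -0.81 (SE 0.27, adjusted p = 0.206); Oplah, which opens the 5-oxoproline that Ggct releases, followed at 0.40 (SE 0.21, adjusted p = 0.426). The 8 tested other peroxidases had a median of -0.09 (-0.21 without PiZ library 1, -0.04 without PiZ library 4), led by Prdx1 (-0.46, SE 0.21, adjusted p = 0.354) and Prdx3 (-0.44, SE 0.26, adjusted p = 0.499). The 11 thioredoxins and glutaredoxins had a median of -0.09 (-0.16 without PiZ/Chop-/- library 1, 0.0030 without PiZ library 2), led by Srxn1, sulfiredoxin (-0.78, SE 0.27, adjusted p = 0.232), and Glrx5 (-0.17, SE 0.17, adjusted p = 0.724).

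Supply of the building blocks was measured in part. Of 19 genes of cysteine and methionine supply 15 were tested, with a median log2 fold change of -0.13, with -0.32 once PiZ/Chop-/- library 1 was left out and 0.03 once PiZ/Chop-/- library 4 was. Slc3a2, the heavy chain shared by amino acid exchangers, had -0.82 (SE 0.24, adjusted p = 0.132) and Mat1a, the liver methionine adenosyltransferase, -0.66 (SE 0.29, adjusted p = 0.342). Slc7a11, the cystine carrier that pairs with Slc3a2, had 0 to 5 counts in PiZ/Chop-/- libraries and 5 to 25 in PiZ libraries and was not tested. Of 10 genes of NADPH supply 9 were tested, with a median of -0.11; leaving out PiZ/Chop-/- library 1 gave -0.23, and leaving out PiZ library 4 gave 0.04. Nnt had -1.28 (SE 0.43, adjusted p = 0.215) and Pgd -0.40 (SE 0.20, adjusted p = 0.406). Chac1, which cuts glutathione inside the cell, had 20, 4, 6 and 11 counts in PiZ/Chop-/- libraries and 4, 2, 2 and 13 in PiZ libraries and was not tested either.

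Gpx1 to Gpx4 are selenoproteins, which need a special insertion of selenocysteine. Of 20 other selenoproteins and factors of their synthesis 18 were tested, none was called and the median log2 fold change was -0.07. That median was -0.12 without PiZ library 2 and lay above 0 without PiZ/Chop-/- library 1 (0.06) or PiZ library 4 (0.07), and without PiZ/Chop-/- library 2, 1 gene was called lower. Selenoh, a small nuclear selenoprotein and one of the genes most like Ggt1 above, had 14, 8, 13 and 15 counts in PiZ/Chop-/- libraries and 19, 32, 49 and 26 counts in PiZ libraries (-1.17, SE 0.30, edgeR adjusted p = 0.0860). Selenos, a selenoprotein of the endoplasmic reticulum, had -0.72 (SE 0.23, adjusted p = 0.181).

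Of 14 enzymes and carriers that use glutathione 12 were tested; besides Abcc4, Glo1, which clears methylglyoxal with glutathione, was separate and higher in PiZ/Chop-/- livers, at 409 ± 61.4 CPM against 267 ± 25.7 CPM in PiZ (SD over 4 libraries each; log2 fold change 0.62, SE 0.18, adjusted p = 0.135), without a call. Of the 17 genes of NRF2 and its targets, all tested, 15 lay below 0 with a median of -0.53 and 1 was called, Cbr3. Over all tested genes 50.2% lay below 0, the median was -0.0016 and 0.692% were called lower. Cbr3 was already known to be lower when the list was drawn up. Gclm, named above as a familiar NRF2 target, was counted with the genes of synthesis and reduction and not in this list. So were Gclc and Gsr. The log2 fold changes of Gclm, Gclc and Gsr were -0.14 (SE 0.20), 0.22 (SE 0.22) and 0.12 (SE 0.37). The NRF2 list was drawn up with earlier results of these data known, so its count below 0 carries no inference. Without PiZ library 4 the median of the NRF2 list was -0.16, against 0.02 over all genes, and 3 of its genes were called lower. In the same list 2 were called lower without PiZ/Chop-/- library 2 and 4 with DESeq2. In PiZ library 4 the ferritin gene Ftl1 stood at 1829 CPM, against 471 to 574 CPM in PiZ libraries 1 to 3. Slc48a1, a haem carrier (-0.70, SE 0.18, adjusted p = 0.0788), and Cbr1, another carbonyl reductase (-1.07, SE 0.27, adjusted p = 0.0842), did not pass.

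**Figure D5:**
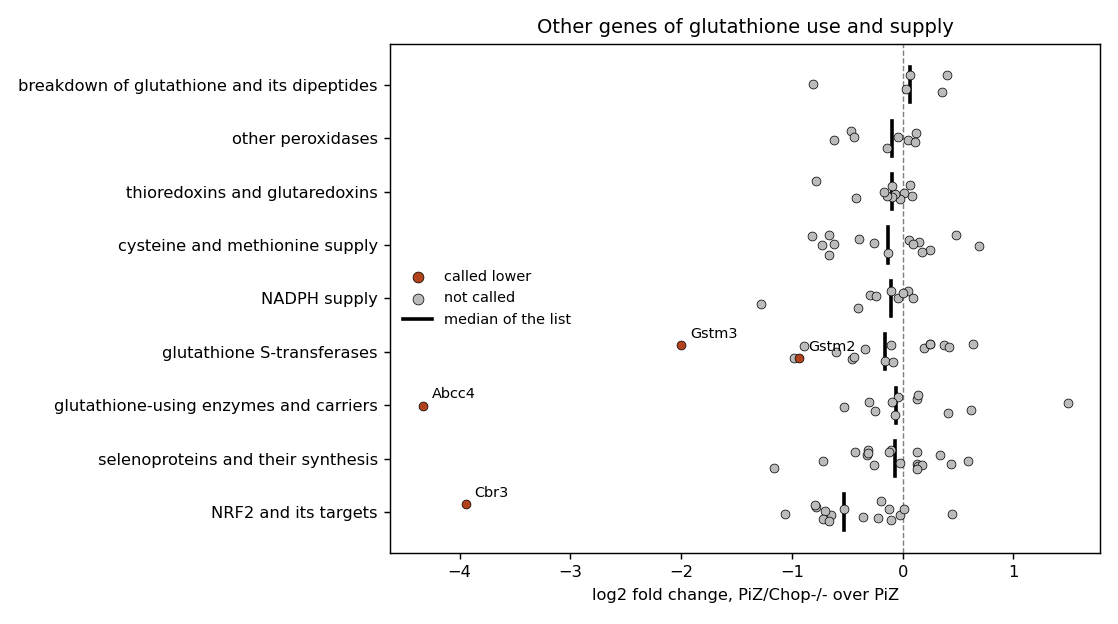
Log2 fold change, PiZ/Chop-/- over PiZ (horizontal axis), of each tested gene in 9 lists of glutathione use and supply (rows); black bars are list medians and filled points genes called lower. Abcc4, Cbr3, Gstm3 and Gstm2 are the called genes, and the list medians lie between -0.53 and 0.06.

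Markers of other cells were read beside these results, as CPM summed over each list. Hepatocyte markers summed to 21324 to 30432 CPM in PiZ/Chop-/- libraries and 21513 to 31906 CPM in PiZ libraries, high in every library, as the label of liver implies. Bile duct markers, the cells richest in gamma-glutamyltransferase in healthy liver, summed to 34.5 to 63.2 CPM in PiZ/Chop-/- and 39.9 to 64.6 CPM in PiZ; 3 of the 10 had enough counts to be tested. The bile duct sums overlapped almost fully. The 3 tested bile duct markers went both ways, 1 below and 2 above 0 (log2 fold changes from -0.89 to 0.26). The part of bile duct cells in the Ggt1 difference was not tested. Kupffer cell and macrophage markers summed to 470 to 627 CPM in PiZ/Chop-/- and 613 to 989 CPM in PiZ, and stellate cell markers to 210 to 344 CPM in PiZ/Chop-/- and 308 to 427 CPM in PiZ. Their part in the differences was not tested. Endothelial sums were 205 to 266 CPM in PiZ/Chop-/- and 145 to 246 CPM in PiZ, red cell sums 341 to 1455 CPM in PiZ/Chop-/- and 351 to 832 CPM in PiZ, and neutrophil sums 3.72 to 85.6 CPM in PiZ/Chop-/- and 8.07 to 32.1 CPM in PiZ.

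Tissues that are rich in Ggt1, Gpx2 or Gpx3 were looked for as well. Of 6 kidney tubule markers 5 had 0 counts in all libraries and the last, Lrp2, had 1 count in each of 2 libraries. Of 6 acinar markers of the pancreas Cpa1 and Amy2a5 had 0 counts, and the sum (78.9 to 208 CPM in PiZ/Chop-/-, 96.3 to 165 CPM in PiZ) came from Cela1, with 159 to 448 counts in PiZ/Chop-/- libraries and 158 to 394 in PiZ libraries. Of 6 gut markers Cdx1 and Cdh17 had 0 counts, and the sum was 21.8 to 30.3 CPM in PiZ/Chop-/- livers and 12.1 to 18.0 CPM in PiZ livers. The only one with enough counts to be tested was Fabp2, with 32 to 49 counts in PiZ/Chop-/- libraries and 19 to 38 in PiZ libraries, and it was not called. The part of these tissues in the results was not tested.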

How the data were processed

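Livers were measured in 8 QuantSeq libraries, 4 PiZ/Chop-/- and 4 PiZ, grouped and numbered by the sample titles. Each file the authors deposited holds raw counts per Ensembl gene ID (per the file headers). Per the submitters' processing notes, STAR and HTSeq were used with build mm10. Versions, annotation, strand setting, and how reads with several matches or PCR copies were handled, are not stated; floors for a count of 0 cover counting error only, while SE and 95% intervals of fold changes come from the fit and include the spread among libraries. Totals were 1650260 to 3064385 counts. Symbols came from GENCODE M21 (52403 of 52550 IDs), promoters from RefSeq (GRCm38.p6).

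The quasi-likelihood test of edgeR 4.0.16 was run under R 4.3.3 (filterByExpr with a minimum count of 10, TMM, robust quasi-likelihood, no covariate), adjusted by Benjamini-Hochberg over 8669 genes. SE is the log2 fold change divided by the square root of F. Likeness used log2 CPM with a prior count of 2, the permutation test log2 of CPM plus 1. The test was checked on simulated counts. Alternatives were other scalings, filters, DESeq2 1.42.0, limma-voom 3.58.1, a fit that was not robust, 20 abundant genes left out, a replicate block and libraries left out. No library of a group matched another within sampling noise.

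The genes, lists, motifs and tests were chosen with earlier results of these data known. The genes named were the 10 members, Ddit3, up to 4 called genes of each list (otherwise up to 2 of lowest p), the 5 most like Ggt1 and Gpx2, and genes overlapping a member or named as its pseudogene. SERPINA1, the transgene, was named outside this rule. Genes outside this rule that were chosen after their values were seen are Ggt5, Ggt7, Gstm4, Slc7a11, Chac1, Glo1, Slc48a1, Cbr1 and Ftl1. The sum of Gpx4 with Gpx4-ps2 was also added then.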

Additional observations from a re-analysis of the deposited data

Results flagged for a closer look

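In 4 of 42 groups of 4 libraries examined, 1 library stood far from the other 3 of its group, where chance alone flags about 5% of groups. Gpx1 stood at 9059 CPM in PiZ library 4, against 5026 to 5309 CPM in the other PiZ libraries; that library also had the lowest mean correlation with its own group (0.914), and without it the log2 fold change of Gpx1 was 0.20. Gstm2 stood at 740 CPM in PiZ library 1, against 883 to 911 CPM in the others. Cbr3 stood at 5.96 CPM in PiZ/Chop-/- library 3, against 2.30 to 2.79 CPM in the others. The Ggt1 share of the Ggt1, Ggt5, Ggt6 and Ggt7 counts was 91.4% in PiZ library 3, against 81.5% to 82.0% in the other PiZ libraries.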

How the results depend on the processing

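Ggt1 and Gpx2 were called lower in all 19 settings run, with log2 fold changes of -5.59 to -4.66 and -4.34 to -3.61. Both were selected on their far lower counts in this same contrast, so their calls carry no inference. Over the settings 2 or 3 members were called lower and none higher. Signs turned without PiZ libraries 1 and 4 for Gpx1 (0.20) and Gclc (-0.046). With single libraries left out Gpx1 ran from -0.15 to 0.20 and Gsr from -0.14 to 0.61; the cause was not tested. The replicate numbers are shared by title only: deviations of same-numbered libraries correlated at -0.05 to 0.05, and with a replicate block the log2 fold changes of Ggt1 and Gpx2 were -5.10 and -3.88, with 76 genes called in place of 89.

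Genes called lower over all genes came to 60, against 182 with no filter on low counts, 114 with DESeq2 and 32 to 102 with 1 library left out. Genes called higher came to 29, against 19 with library size as the only scaling, 175 with no filter, 94 with DESeq2, 18 with limma-voom and 12 to 67 with 1 library left out. Genes of the other glutathione lists called lower came to 4, against 12 with no filter, 8 with DESeq2 and 2 to 7 with 1 library left out; DESeq2 called 1 higher. Fits with fewer libraries rest on fewer samples. Low counts limit Gpx4, Ggt5, Ggt7 and the PiZ/Chop-/- values of Ggt1 and Gpx2.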
